A study of Mus musculus with 7 samples.

Results

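Skeletal muscle makes the respiratory chain from 2 genomes, and the genes described here are the 13 messenger RNAs (mRNAs) of mitochondrial DNA (mtDNA) together with nuclear genes that copy, transcribe, stabilize and translate that DNA. They were chosen by name, with earlier results of these data known. Of 38 genes named, 37 were found among the 21487 genes of the count table: the 13 mtDNA mRNAs and 24 nuclear genes. The expression of Twnk, which encodes the helicase of mtDNA replication, was not analysed here. All 37 passed the filter on low counts and stood among the 13409 genes tested.

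RNA came from gastrocnemius, a calf muscle. All mice had muscle atrophy brought on by immobilization, and no unimmobilized muscle entered the comparison. The 3 control samples carry the label WT, while the study's design text calls the control animals flox mice. The 4 knockout samples lacked DJ-1, the protein of the gene Park7, in skeletal muscle only (MPARK7KO). The labels name neither the Cre driver, nor the age of the mice, nor whether each library is a separate animal, so the p-values measure the spread between these 7 libraries, which may be technical. Paired reads of 150 bases were made on a BGISEQ-500, and the library totals ran from 24458339 to 26389008 counts (rounded per gene).

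Mitochondrial DNA is a small circle that encodes 13 proteins, all of them subunits of respiratory complexes I, III and IV or of ATP synthase. Both of its strands are read by the RNA polymerase POLRMT, with the factors TFAM and TFB2M, into long transcripts that are then cut apart, largely at the transfer RNAs between the genes. ND6 is the only mRNA read from the opposite strand to the other 12. Every step uses proteins made from nuclear genes. The amount of an mtDNA mRNA depends on the number of mtDNA copies, on transcription, and on how long the RNA lasts. Counts of mRNA measure none of these separately.

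Park7 checked the labels. Its level was 240, 229 and 266 counts-per-million (CPM) in the controls and 35.9, 41.5, 34.7 and 37.2 CPM in the knockouts. The groups did not overlap, and the log2 fold change was -2.71 (SE 0.0895). Which exons were removed is not given in the sources used here. Markers of the muscle fibre (Acta1, Ckm, Mb, Ryr1 and Ttn) summed to 50728 to 58875 CPM in the controls and 43972 to 58543 CPM in the knockouts, and of these 5 Mb (myoglobin) fell, by 2.17 on the log2 scale. Over all genes tested, edgeR's quasi-likelihood test called 895 higher and 1103 lower in the knockout at an adjusted p under 0.05 (644 and 1295 with upper-quartile scaling).

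The mRNAs of mtDNA were lower in the knockout as a group. Of all counts, the 13 mRNAs together took 20.0%, 18.9% and 17.0% in the 3 controls (18.6% ± 1.51, SD, n = 3). They took 11.6%, 9.91%, 8.72% and 11.6% in the 4 knockouts (10.4% ± 1.40, SD, n = 4). No knockout came near the lowest control. Of the 13 mRNAs, 12 fell and 0 rose in edgeR's test, which called 8.23% of all tested genes lower and 6.67% higher. None of the 13 was higher at an unadjusted p under 0.05 either, and DESeq2 and limma-voom also called 0 higher. For each of the 13, every knockout lay below every control, a pattern shown by 14.8% of all tested genes. The median log2 fold change of the 13 was -0.81, against 0.0058 over all tested genes. In bulk tissue, fewer mitochondria-rich cells and less of the RNA per cell cannot be told apart.

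**Figure D1:**
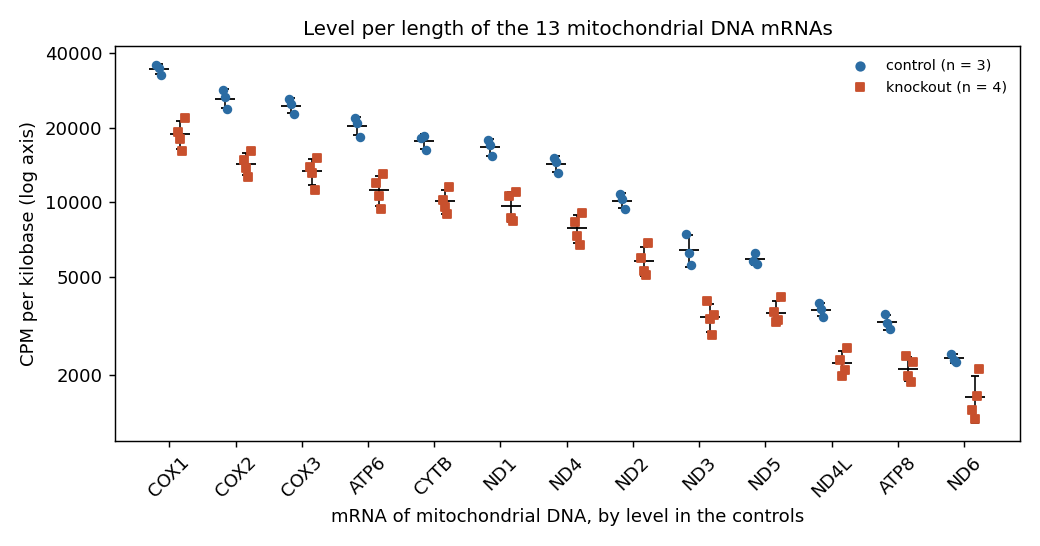
Level of each of the 13 mtDNA mRNAs in CPM per kilobase of gene (log axis), ordered by the control mean. Circles are the 3 controls, squares the 4 knockouts, and bars the mean ± SD of each group. Every knockout lies below every control for each mRNA, and the order runs from COX1, at 34495 in the controls, to ND6, at 2337.

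The levels of the 13 mRNAs were compared per kilobase of gene, since the genes differ in length. Full gene lengths were used, with no allowance for the length of the sequenced fragments. The levels of the shortest genes, ATP8 (204 bases), ND4L (297) and ND3 (348), may therefore be set too low. COX1, which encodes the catalytic subunit of cytochrome c oxidase (complex IV), was highest in the controls at 34495 ± 1693 CPM per kilobase (SD, n = 3). COX2 followed at 26213 ± 2302 and COX3 at 24558 ± 1706 CPM per kilobase, and the values of this pair overlapped. ATP6 (20351 ± 1756), CYTB (17639 ± 1173) and ND1 (16706 ± 1276) came next, each overlapping with its neighbour. ND4 (14276 ± 1015) and ND2 (10142 ± 700) stood apart from their neighbours. ND3 (6424 ± 933) and ND5 (5874 ± 310) overlapped, as did ND4L (3684 ± 226) and ATP8 (3278 ± 227). ND6 was lowest at 2337 ± 95.7 CPM per kilobase, and the COX1 level was 14.8 times that of ND6. The 24 nuclear genes lay far below: per kilobase of their joined exons they ran from 0.578 CPM (Polg2) to 50.6 CPM (Tufm), with a median of 4.38. The lowest mtDNA mRNA was 46.2 times the highest nuclear gene. The joined exons of all annotated transcripts can be longer than the mRNA itself, so nuclear levels may be set too low, and unevenly. In the knockouts COX1 was at 18810 ± 2432 and ND6 at 1636 ± 349 CPM per kilobase (SD, n = 4).

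Several of these genes share bases, and a read that crosses such a junction covers parts of both genes. Their junctions are shown because 4 of the 13 mRNAs, ATP8, ND4L, ND5 and ND6, are discussed below by their share of the counts. The sequences are of GRCm38 with GENCODE M21 gene ends, 5′ to 3′ on the forward strand, with shared bases in capitals. ATP8 and ATP6 share 43 bases in different reading frames, at chrM:7927-7969.

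ATP8 and ATP6: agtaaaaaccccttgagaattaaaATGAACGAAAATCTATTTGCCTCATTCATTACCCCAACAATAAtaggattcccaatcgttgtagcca

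ND4L and ND4 share 7 bases at chrM:10167-10173, where the start codon of ND4 precedes the stop codon of ND4L.

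ND4L and ND4: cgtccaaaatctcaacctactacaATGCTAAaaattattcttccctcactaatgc

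ATP6 and COX3 share a single base.

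ATP6 and COX3: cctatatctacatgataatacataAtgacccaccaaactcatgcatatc

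ND5 and ND6 are read from opposite strands and meet tail to tail over 14 bases, at chrM:13552-13565.

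ND5 and ND6: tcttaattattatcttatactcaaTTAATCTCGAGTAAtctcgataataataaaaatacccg

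ATP8 with ATP6, and ND4L with ND4, are known to stay joined in bicistronic mRNAs. Different levels per kilobase within such a pair therefore need not be different amounts of mRNA. Nor need different log2 fold changes be different changes of mRNA. These were -0.62 for ATP8 and -0.86 for ATP6, and -0.72 for ND4L and -0.87 for ND4. The differences within the pairs were not tested. Whether the counting used the strand of the reads is not given in the sources used here. Reads of ND6 (chrM:13552-14070, minus strand) can therefore not be told apart from reads of the transcript of the opposite strand. The deposited counts of all 13 mRNAs were whole numbers in every library, so no division of reads between these genes shows in the counts. How reads across a junction were counted is not given in the sources used here.

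Complex I, NADH dehydrogenase, takes 7 of its subunits from mtDNA, and 6 of these 7 mRNAs fell, beside 8.23% of all tested genes. ND1, a subunit of the membrane arm next to the quinone site, was at 17036, 16281 and 14647 CPM in the controls and 10142, 8242, 8050 and 10527 CPM in the knockouts. The groups stood well apart, and the log2 fold change of ND1 was -0.79 (SE 0.161, adjusted p = 0.0158). ND3, a small subunit of the same arm, was at 2586, 2176 and 1945 CPM in the controls and 1386, 1177, 1009 and 1222 CPM in the knockouts. Its log2 fold change, -0.90 (SE 0.136, adjusted p = 0.00653), was the most negative of the 13. ND2, ND4 and ND5 encode the subunits of the proton-pumping modules. ND4 was at 20836, 20060 and 18121 CPM in the controls and 11435, 10037, 9286 and 12417 CPM in the knockouts (log2 fold change -0.87, SE 0.164, adjusted p = 0.0124). ND2 fell from between 9746 and 11184 CPM to between 5292 and 7126 CPM, by 0.80 on the log2 scale. ND5 fell from between 10275 and 11351 CPM to between 5958 and 7544 CPM, by 0.71 on the log2 scale. ND4L, a small subunit whose mRNA also carries ND4, fell from between 1024 and 1158 CPM to between 589 and 765 CPM, by 0.72 on the log2 scale.

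ND6, the complex I subunit encoded on the other strand, did not pass. Its level was 1268, 1199 and 1172 CPM in the controls, and 748, 691, 857 and 1101 CPM in the knockouts. Knockout 4 stood close below the controls, and the other 3 knockouts were well below it. The log2 fold change was -0.51 (SE 0.151, 95% interval -0.85 to -0.17), with an unadjusted p of 0.00758 and an adjusted p of 0.0506 in edgeR's test. Its adjusted p ran from 0.0105 with DESeq2 to 0.147 without control 1, and it passed in 9 of 18 alternative fits. Without knockout 4 the log2 fold change was -0.66 (adjusted p = 0.0147 in edgeR's test).

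CYTB encodes cytochrome b, the only mtDNA subunit of complex III. It was at 20773, 21121 and 18642 CPM in the controls and 11709, 10965, 10203 and 13211 CPM in the knockouts. The highest knockout was well under the lowest control, and the log2 fold change was -0.81 (SE 0.159, adjusted p = 0.0140).

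COX1, COX2 and COX3 form the core of complex IV, and all 3 fell, beside 8.23% of all tested genes. COX1 was the most abundant mRNA here, at 55562, 53892 and 50433 CPM in the controls and 29547, 27916, 24886 and 33894 CPM in the knockouts. Its log2 fold change was -0.87 (SE 0.202, 95% interval -1.33 to -0.42, adjusted p = 0.0238). COX2, which receives electrons from cytochrome c, was at 19399, 18122 and 16268 CPM in the controls and 10147, 9400, 8621 and 10992 CPM in the knockouts, with a log2 fold change of -0.87. COX3 was at 20443, 19513 and 17805 CPM in the controls and 10913, 10295, 8789 and 11822 CPM in the knockouts, with a log2 fold change of -0.88. The SEs of COX2 and COX3 were 0.155 and 0.161. The COX1 call was lost in edgeR's test without control 1, 2 or 3 or knockout 2 or 3, with adjusted p-values from 0.0519 to 0.0829. Without control 1 those of ND1 and CYTB were 0.0594 and 0.0523.

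Both mtDNA subunits of ATP synthase fell, beside 8.23% of all tested genes. ATP6, part of the proton channel, was at 14852, 14194 and 12531 CPM in the controls and 8112, 7198, 6384 and 8832 CPM in the knockouts (log2 fold change -0.86, SE 0.159, adjusted p = 0.0114). ATP8, a short membrane subunit, was at 718, 663 and 626 CPM in the controls and 489, 403, 384 and 461 CPM in the knockouts. Its fall, 0.62 on the log2 scale (SE 0.103, adjusted p = 0.00819), was the smallest of the 12 that passed, but the groups stayed clear of each other. Knockout 3 was the lowest library for 10 of the 13 mRNAs and knockout 2 for 3.

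**Figure D2:**
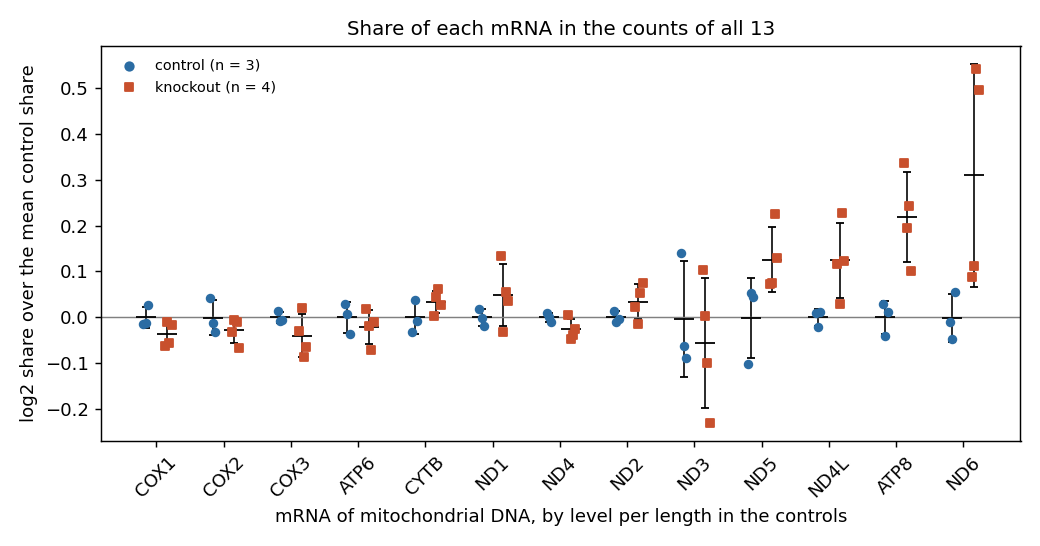
Share of each mtDNA mRNA in the summed counts of all 13, as the log2 of the share over the mean control share, with mRNAs ordered by level per length. Circles are the 3 controls, squares the 4 knockouts, and bars the mean ± SD. For ND5, ND4L, ATP8 and ND6, at the right, every knockout lies above every control.

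The composition within the 13 was close between groups, and 4 shares did not overlap. The share of an mRNA among the 13 does not depend on library scaling, and it cannot rise for some mRNAs without falling for others. In the controls COX1 took 28.6% ± 0.464 of these counts (SD, n = 3). In the knockouts it took 27.9% ± 0.522 (SD, n = 4). In 4 mRNAs every knockout share was above every control share: ND5, ND4L, ATP8 and ND6, which hold ranks 10 to 13 in level per length. The ranks of ATP8 and ND4L may be too low, as their genes are short. By CPM, every knockout was above every control for 14.0% of all tested genes, and no such figure was computed for shares. Reads of ATP8 and ND4L come from mRNAs joined to a neighbour, and those of ND6 are uncertain in strand. ND5 went from 5.75% ± 0.342 to 6.28% ± 0.315, and ND4L from 0.586% ± 0.00741 to 0.640% ± 0.0362. ATP8 went from 0.358% ± 0.00896 to 0.418% ± 0.0284. The share of ND6 was 0.646%, 0.630% and 0.677% in the controls and 0.692%, 0.703%, 0.947% and 0.918% in the knockouts. For ND6, knockouts 1 and 2 lay just above the controls, and knockouts 3 and 4 far above. The other 9 shares overlapped between the groups, and the shares were described without a test.

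ND6 counts were tested as a ratio to those of ND5 and CYTB, which are read from the other strand. The log2 ratio of ND6 to ND5 counts was 0.18 higher in the knockout, and the groups overlapped (exact permutation p = 0.229, adjusted p = 0.229 over 9 pairs). The log2 ratio of ND6 to CYTB was 0.28 higher, with every knockout above every control (exact permutation p = 0.143, adjusted p = 0.161). Neither passed, so a different change of ND6 and of its neighbours was not shown at this number of libraries. Since the use of strand is not known, ND6 counts may hold reads of the opposite transcript. These ratios can therefore not decide whether the strands differ.

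Most of the nuclear genes that keep, read and use mtDNA gave no call. Of the 24, 5 fell (Lrpprc, Gfm1, Gfm2, Tufm and Tsfm) and 0 rose, beside 8.23% lower and 6.67% higher over all tested genes. At an unadjusted p under 0.05, which 16.4% of all tested genes passed lower and 15.3% higher, Polrmt and Elac2 were higher. DESeq2 and limma-voom also called 0 of the 24 higher. In 5 of the 24 every knockout lay below every control, and in 1 (Nrf1) above, beside 14.8% and 14.0% of all tested genes. Their median log2 fold change was -0.04, against -0.81 for the mRNAs. Their summed level was 806, 826 and 798 CPM in the controls and 726, 733, 736 and 748 CPM in the knockouts. In edgeR's test the count of 5 came to 1 without control 1 or control 3, 2 without control 2 or knockout 3, and 3 without knockout 1, 2 or 4. It was 3 without a filter on low counts or without a scaling factor, and 1 with replicate numbers fitted as a block. Lrpprc passed in each of the 18 alternatives.

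**Figure D3:**
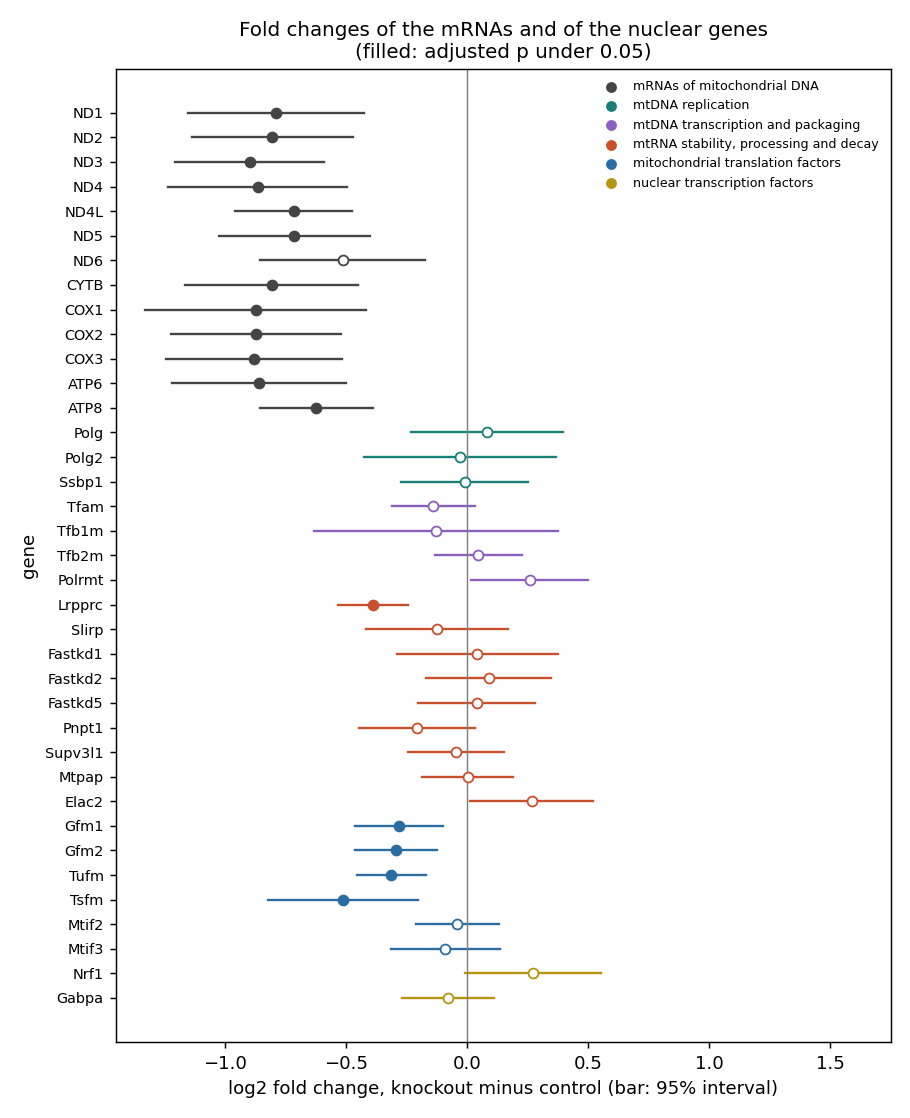
Log2 fold change, knockout minus control, of the 13 mtDNA mRNAs and the 24 nuclear genes, coloured by role, with bars for the 95% interval. Filled points had an adjusted p under 0.05 in edgeR's test. The mRNAs lie between -0.90 and -0.51, while 19 of the 24 nuclear genes are open points, and the filled nuclear points are Lrpprc and 4 translation factors.

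Replication sets the number of mtDNA copies, the template of all 13 mRNAs. Of the 3 replication genes measured, 0 passed in either direction in edgeR's test, also at an unadjusted p under 0.05. Polg, the catalytic subunit of the mtDNA polymerase, was at 36.3, 29.9 and 40.4 CPM in the controls and 29.7, 40.9, 40.2 and 39.8 CPM in the knockouts. The groups covered the same range, and the log2 fold change was 0.08 (SE 0.139, 95% interval -0.23 to 0.40). Polg2, its accessory subunit, ran from 2.13 to 2.74 CPM in the controls and 2.02 to 2.78 CPM in the knockouts (-0.03, SE 0.176, 95% interval -0.43 to 0.37). Ssbp1, which coats single-stranded mtDNA, was at 15.4, 19.5 and 16.3 CPM in the controls and 19.1, 16.7, 17.0 and 15.1 CPM in the knockouts. Its log2 fold change of -0.01 (SE 0.116) had a 95% interval of -0.27 to 0.25. None of these 3 intervals reached the median of the mRNAs. The copy number of mtDNA was not measured by these libraries.

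Of the 4 transcription genes 0 passed in edgeR's test, and Polrmt alone did at an unadjusted p under 0.05. Tfam, which packages mtDNA and opens its promoters, was at 47.2, 52.6 and 49.1 CPM in the controls and 48.1, 43.1, 45.2 and 43.6 CPM in the knockouts. Knockout 1 lay inside the control range, the other 3 knockouts below it, and the log2 fold change was -0.14 (SE 0.0764, 95% interval -0.31 to 0.03, adjusted p = 0.246). Polrmt, the RNA polymerase, was at 19.9, 23.7 and 22.3 CPM in the controls and 22.6, 26.7, 26.6 and 29.1 CPM in the knockouts. Here 3 of 4 knockouts were above all controls, opposite to the mRNAs (log2 fold change 0.26, SE 0.107, 95% interval 0.02 to 0.50, adjusted p = 0.137). Tfb2m, needed to start transcription, ran from 52.7 to 58.8 CPM in the controls and 53.2 to 61.7 CPM in the knockouts (0.05, SE 0.0789). Tfb1m, which modifies the small ribosomal RNA, ran from 4.14 to 6.55 CPM and from 3.74 to 6.47 CPM (-0.13, SE 0.223). The interval of Tfb1m, -0.63 to 0.38, was the widest of the 4, and its counts were only 103 to 171 a library.

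**Figure D4:**
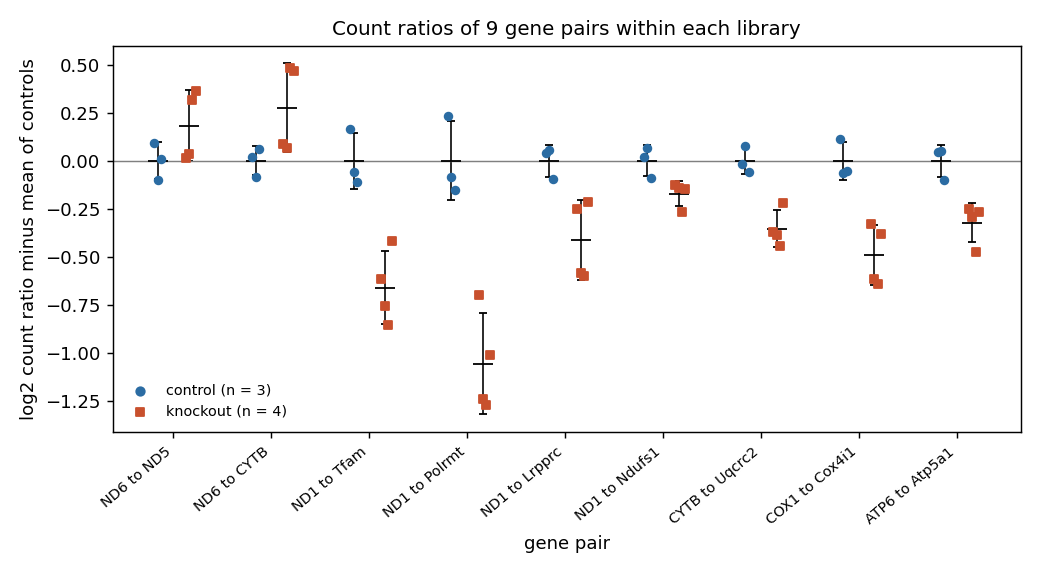
Log2 count ratio of 9 gene pairs in each library, less the mean of the controls for that pair. Circles are the 3 controls, squares the 4 knockouts, and bars the mean ± SD. For the 7 pairs of an mtDNA mRNA with a nuclear gene, every knockout lies below every control, furthest for ND1 to Polrmt.

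Ratios within a library set the mRNAs against this machinery free of scaling. The log2 ratio of ND1 to Tfam counts was 8.33 ± 0.145 in the 3 controls and 7.67 ± 0.190 in the 4 knockouts (mean ± SD). The ratio in the knockouts was 0.633 times that in the controls, lower in 4 of 4 knockouts (2-sided exact permutation p = 0.0286, the smallest that 35 splits allow, adjusted p = 0.0429 over 9 pairs). ND1 to Polrmt went from 9.51 ± 0.205 to 8.45 ± 0.264 on the log2 scale, a factor of 0.482 (exact permutation p = 0.0286, adjusted p = 0.0429). ND1 to Lrpprc went from 7.29 ± 0.0814 to 6.88 ± 0.208, a factor of 0.753. That ratio did not pass (exact permutation p = 0.0571, adjusted p = 0.0735), although 4 of 4 knockouts were below all controls. ND1 entered 4 of the 9 pairs, so these ratios share its counts.

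Of the 9 genes for RNA stability, processing and decay, 1 fell, beside 8.23% of all tested genes. Lrpprc binds mtDNA mRNAs as a complex with SLIRP and keeps them from decay. Lrpprc was at 106, 99.8 and 99.5 CPM in the controls and 76.7, 78.5, 77.6 and 77.7 CPM in the knockouts. The knockouts were tightly grouped well below the controls, and the log2 fold change was -0.39 (SE 0.0636, 95% interval -0.53 to -0.25, adjusted p = 0.00795). Slirp, its partner, was at 18.7, 21.2 and 17.2 CPM in the controls and 20.9, 15.8, 15.3 and 17.9 CPM in the knockouts. Those ranges overlapped (-0.12, SE 0.129, 95% interval -0.42 to 0.17, adjusted p = 0.544). The difference between the changes of Lrpprc and Slirp was not tested.

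The remaining 7 genes of that role gave no call. Fastkd1, Fastkd2 and Fastkd5, of a family of RNA-binding proteins of mitochondria, had log2 fold changes of 0.04, 0.09 and 0.04. Pnpt1 and Supv3l1 form the complex that degrades mtDNA transcripts. Pnpt1 ran from 12.6 to 14.8 CPM in the controls and 10.6 to 12.9 CPM in the knockouts (-0.21, SE 0.106, adjusted p = 0.216). Supv3l1 ran from 15.7 to 16.8 CPM and from 14.9 to 17.2 CPM (-0.05, SE 0.0878). Elac2, which cuts the 3′ ends of the transfer RNAs, was at 25.9, 27.0 and 28.4 CPM in the controls and 27.2, 37.3, 34.4 and 31.4 CPM in the knockouts. Knockout 1 fell among the controls and the others were above them (0.27, SE 0.112, adjusted p = 0.140).

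Mtpap adds the poly(A) tail, which in mitochondria also completes stop codons that the DNA leaves unfinished. Of the 13 coding sequences, 10 end in a complete stop codon and 3 end in a lone T. These 3 are shown by their last 30 bases, in GRCm38, with the unfinished stop codon as the capital at the end.

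COX3: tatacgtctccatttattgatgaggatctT

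ND4: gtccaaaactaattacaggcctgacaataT

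CYTB: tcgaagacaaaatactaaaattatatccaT

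Mtpap was at 18.7, 18.4 and 17.1 CPM in the controls and 18.7, 18.6, 17.96 and 17.1 CPM in the knockouts. The groups covered the same range, with a log2 fold change of 0.0023 (SE 0.0830, 95% interval -0.19 to 0.19). The mRNAs of COX3, ND4 and CYTB fell by 0.88, 0.87 and 0.81 on the log2 scale, within the range of the others.

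Translation factors made up 4 of the 5 calls among the nuclear genes. Of 6 measured, 4 fell and 0 rose, beside 8.23% and 6.67% of all tested genes. All 6 had a negative log2 fold change, and their median was -0.29. Tufm carries charged transfer RNAs to the mitochondrial ribosome. It was at 111, 106 and 106 CPM in the controls and 84.6, 87.8, 87.6 and 86.2 CPM in the knockouts, with a wide gap between the groups (-0.31, SE 0.0634, adjusted p = 0.0153). Tsfm, which recharges TUFM, was at 10.6, 13.9 and 11.1 CPM in the controls and 9.32, 7.15, 7.85 and 8.91 CPM in the knockouts (-0.51, SE 0.138, adjusted p = 0.0386). Gfm1, which moves the ribosome along, was at 95.2, 95.03 and 90.3 CPM in the controls and 80.0, 68.0, 79.8 and 80.0 CPM in the knockouts. Gfm1 was close to the threshold (-0.28, SE 0.0805, adjusted p = 0.0469). Gfm2, which helps to recycle the ribosome, was at 75.1, 77.8 and 71.5 CPM in the controls and 57.8, 61.2, 59.3 and 65.8 CPM in the knockouts (-0.29, SE 0.0744, adjusted p = 0.0319). The initiation factors gave no call: Mtif2 ran from 25.5 to 27.6 CPM in the controls and 24.96 to 26.8 CPM in the knockouts (-0.04, SE 0.0759). Mtif3 ran from 17.0 to 20.3 CPM and from 16.6 to 19.0 CPM (-0.09, SE 0.100). Over 18 alternative fits Tufm passed in 15, Gfm2 in 11, Tsfm in 10 and Gfm1 in 8. The highest adjusted p-values were 0.0609 for Tufm, 0.0988 for Gfm2, 0.124 for Tsfm and 0.135 for Gfm1.

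Nrf1 and Gabpa encode transcription factors known to drive nuclear genes of mitochondrial function. Nrf1 was at 9.65, 11.9 and 10.8 CPM in the controls and 12.4, 15.4, 12.1 and 12.1 CPM in the knockouts. Every knockout was above every control, as for 14.0% of all tested genes, but the gene did not pass (0.27, SE 0.124, 95% interval -0.01 to 0.55, adjusted p = 0.171). Gabpa ran from 36.1 to 40.9 CPM in the controls and 34.1 to 39.6 CPM in the knockouts (-0.08, SE 0.0839, adjusted p = 0.555).

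Promoters of the nuclear genes were searched for short motifs of these factors. RefSeq promoters of GRCm38.p6, from 250 bases before to 50 after a gene's start, were found for 23 of the 25 nuclear genes named. The core CCGGAAG, which ETS-family factors such as GABPA bind, stood on either strand in 12 of these 23 (52.2%). It stood in 19.2% of the 10092 tested genes with a promoter and in 9.93% of all 27025 genes with a promoter. The 12 were Polg, Polg2, Twnk, Ssbp1, Tfam, Polrmt, Slirp, Fastkd5, Gfm1, Tufm, Mtif2 and Gabpa. Of the 5 genes that fell, Gfm1 and Tufm have a match, and Lrpprc, Gfm2 and Tsfm have none in this window. The NRF1 core, GCGC followed by AT and again GCGC, reads the same on both strands and does not overlap the ETS core. It stood in 0 of the 23 and in 2.26% of the tested genes. Only this exact core was searched and it is rare, so 0 matches do not show that these genes lack NRF1 sites. Tfam and Tufm are shown as a gene that did not pass and a gene that fell, each with 1 ETS core, in capitals. Both are printed 5′ to 3′ in the direction of the gene, Tfam from chr10:71237995-71238294 on the minus strand and Tufm from chr7:126487105-126487404 on the plus strand.

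Tfam: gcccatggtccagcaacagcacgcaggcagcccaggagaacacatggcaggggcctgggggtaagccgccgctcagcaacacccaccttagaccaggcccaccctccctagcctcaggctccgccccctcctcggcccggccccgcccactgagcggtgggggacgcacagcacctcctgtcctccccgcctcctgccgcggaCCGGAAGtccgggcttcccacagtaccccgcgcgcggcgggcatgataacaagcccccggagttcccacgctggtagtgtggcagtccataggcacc

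Tufm: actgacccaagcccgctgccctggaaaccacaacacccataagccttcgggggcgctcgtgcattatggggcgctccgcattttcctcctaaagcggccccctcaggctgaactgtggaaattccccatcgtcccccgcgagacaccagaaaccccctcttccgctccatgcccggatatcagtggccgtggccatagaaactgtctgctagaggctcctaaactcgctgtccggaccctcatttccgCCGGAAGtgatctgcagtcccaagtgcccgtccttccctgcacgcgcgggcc

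A match is a stretch of letters and not a measured binding site.

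A further 85 nuclear genes of mtDNA expression were listed by role beside the 24. Of these, 9 fell and 0 rose in edgeR's test, beside 8.23% and 6.67% over all tested genes, and the median log2 fold change was -0.07. At an unadjusted p under 0.05, 19 were lower and 4 higher, beside 16.4% and 15.3% of all tested genes. DESeq2 called 2 higher and limma-voom 0. Among 13 genes of mtDNA maintenance and nucleotide supply 0 passed, with 1 lower and 1 higher at an unadjusted p under 0.05. Of 7 genes of transcription and its termination 2 fell. Mterf2, of the family of mitochondrial termination factors, was at 13.6, 13.5 and 14.1 CPM in the controls and 8.997, 6.85, 6.53 and 7.42 CPM in the knockouts. Its log2 fold change, -0.88 (SE 0.124, adjusted p = 0.00533), lay within the range of the mRNAs, and the groups were far apart. Mrpl12, a ribosomal protein also known to bind POLRMT, was at 79.4, 86.3 and 74.6 CPM in the controls and 63.2, 56.9, 59.5 and 58.9 CPM in the knockouts (-0.43, SE 0.0772, adjusted p = 0.0107).

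Of 16 further genes of RNA processing and decay, 2 fell. For this list and those that follow, 8.23% of all tested genes were called lower. Ptcd3, which encodes a protein of the small mitochondrial ribosomal subunit, fell by 0.49 (log2 scale, adjusted p = 0.0128 in edgeR's test). Grsf1, a protein of the mitochondrial RNA granule, fell by 0.33 (adjusted p = 0.0179 in edgeR's test). Of 12 genes that modify transfer or ribosomal RNA, Mrm2, a ribosomal RNA methyltransferase, fell by 0.49. Of 12 other translation genes, Taco1, an activator of COX1 translation, fell by 0.38 and Mrpl58, a ribosomal rescue factor listed under its older symbol, by 0.39. Of 17 aminoacyl-transfer RNA synthetases, Hars2 fell by 0.33, and of 8 further regulators Ppargc1b, a coactivator, fell by 0.66 on the log2 scale. The adjusted p-values in edgeR's test were 0.0270 for Mrm2, 0.0420 for Taco1, 0.0443 for Mrpl58, 0.0310 for Hars2 and 0.0494 for Ppargc1b. Mterf2, Mrpl12 and Ptcd3 passed in each of the 18 alternatives. Grsf1 passed in 15, Mrm2 in 12, Taco1 and Hars2 in 10, Mrpl58 in 9 and Ppargc1b in 8. The highest adjusted p-values were 0.0624 for Grsf1, 0.102 for Mrm2, 0.131 for Taco1, 0.106 for Hars2, 0.139 for Mrpl58 and 0.139 for Ppargc1b. The count of 9 was 3 without control 1 or control 2, 4 without control 3, knockout 3 or knockout 4, 9 without knockout 1 and 10 without knockout 2. It was 5 with no filter on low counts and 4 with the replicate block.

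Partner subunits from the nucleus were lower as well, by less than their mtDNA partners. All 4 were called lower, beside 8.23% of all tested genes. Ndufs1 (complex I) was at 407, 376 and 377 CPM in the controls and 267, 220, 235 and 282 CPM in the knockouts, with a log2 fold change at -0.62 (SE 0.0982, adjusted p = 0.00724). Uqcrc2 (complex III) fell by 0.46, Cox4i1 (complex IV) by 0.39 and Atp5a1 (ATP synthase) by 0.54 on the log2 scale. Ndufs1, Uqcrc2 and Atp5a1 passed in each of the 18 alternatives. Cox4i1 passed in 14, and its call was lost in edgeR's test without control 1, 2 or 3 or knockout 3, with adjusted p-values from 0.0534 to 0.0699. The 4 ratios of an mtDNA mRNA to its partner were lower in 4 of 4 knockouts (exact permutation p = 0.0286 and adjusted p = 0.0429 for each). The factors were 0.889 for ND1 to Ndufs1, 0.783 for CYTB to Uqcrc2, 0.712 for COX1 to Cox4i1 and 0.801 for ATP6 to Atp5a1. These partners were taken as 1 subunit a complex and do not stand for all nuclear subunits.

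**Figure D5:**
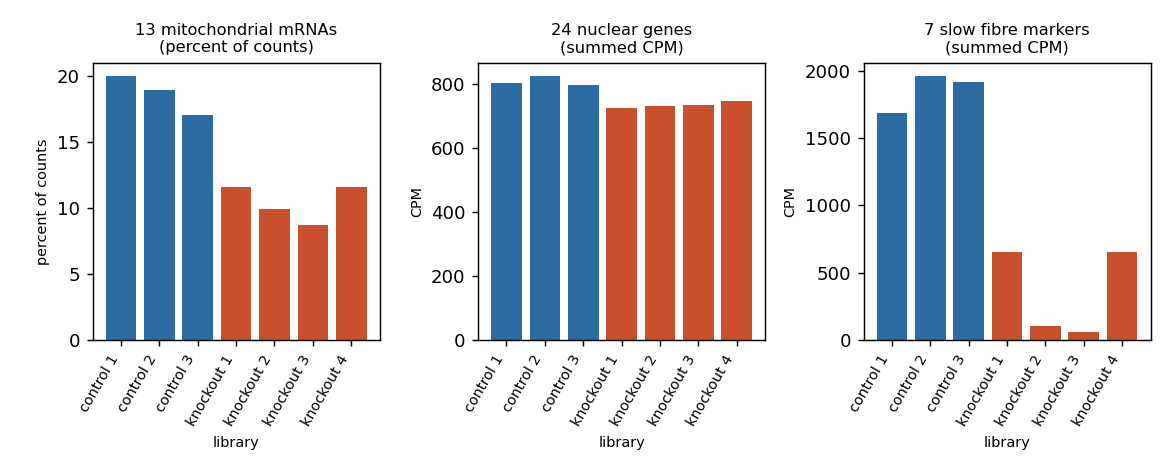
Per library, from left to right: percent of counts in the 13 mtDNA mRNAs, summed CPM of the 24 nuclear genes and summed CPM of 7 slow fibre markers (bars from 0, 3 controls then 4 knockouts). All knockouts are lower in each panel, and knockouts 2 and 3 are lowest in the first and the last.

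Some markers of fibre type differed between the same groups. The 7 slow fibre markers (Myh7, Tnnt1, Tnni1, Tnnc1, Myl2, Myl3 and Atp2a2) summed to 1683, 1961 and 1915 CPM in the controls and 655, 106, 61.7 and 656 CPM in the knockouts. Of the 7, Myl2 and Atp2a2 fell, beside 8.23% of all tested genes, and the median log2 fold change was -2.37. Every knockout was below every control for all 7, beside 14.8% of all tested genes. Knockouts 2 and 3 had the fewest slow fibre counts and also the smallest shares of mtDNA mRNAs, 9.91% and 8.72%. The controls did not follow that order: control 1 had the lowest slow fibre sum and the highest share, 20.0%. The 10 fast fibre markers summed to 124162 to 152392 CPM in the controls and 153144 to 225555 CPM in the knockouts. Myh4 and Actn3 were called higher, Myh1 and Myh2 lower, and the other 6 were not called. Mean levels in controls and knockouts were 5447 and 1145 CPM for Myh2 and 10214 and 3729 CPM for Myh1. They were 46309 and 99854 CPM for Myh4 and 7068 and 11778 CPM for Actn3. Myh2 was lowest in knockout 3, at 124 CPM. Slow fibres are known to hold more mitochondria than the fastest fibres. The part of fibre type in the fall of the mtDNA mRNAs was not tested.

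Markers of other cells were called lower in several lists, and the share called lower over all tested genes was 8.23%. Fibroblast markers (3 of 5 fell) summed to 260 to 540 CPM in the controls and 186 to 282 CPM in the knockouts. Erythroid markers (3 of 5 fell) ran from 223 to 808 CPM and from 101 to 235 CPM. Pericyte and smooth muscle markers (3 of 4 fell) ran from 329 to 472 CPM and from 309 to 375 CPM. Macrophage markers (2 of 6 fell) ran from 28.6 to 34.5 CPM and from 17.1 to 28.3 CPM. Schwann cell markers (1 of 4 fell) ran from 37.6 to 165 CPM and from 21.96 to 36.6 CPM. Endothelial markers (0 of 6 called, 2 lower at an unadjusted p under 0.05) ran from 199 to 239 CPM and from 168 to 185 CPM. Satellite cell markers (0 of 4 called, 0 at an unadjusted p under 0.05) reached at most 12.3 CPM in the controls and 9.95 CPM in the knockouts. Adipocyte markers (0 of 3 tested called) reached at most 15.6 CPM in any library, and neutrophil and lymphocyte markers at most 1.48 and 2.81 CPM. No marker was at 0 in all libraries. The part of these cells in the differences of the mtDNA mRNAs was not tested.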

How the data were processed

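RNA of 3 control and 4 knockout samples was compared, grouped by title. Per the submitters' processing notes, the authors used the mouse build mm10, the aligner STAR (2.7.10a), RSEM (1.2.28) for quantification and DESeq2 (1.3.40) for testing. The deposited values are RSEM expected counts per gene, with no normalization. Neither the annotation nor the use of strand is given in the sources used here. Of these values 7.59% were not whole (tolerance 0.001), since RSEM divides reads between similar genes. Among the nuclear genes Polg, Tfb2m, Fastkd5 and Mtif3 had such values in all 7 libraries. Spreadsheet software had turned 24 symbols into dates.

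Expected counts were rounded. Genes were filtered with filterByExpr, scaled by TMM and tested with edgeR 4.0.16 (R 4.3.3, limma 3.58.1) by the quasi-likelihood F test in its current (non-legacy) form, without covariates. P-values were adjusted by the Benjamini-Hochberg method over 13409 genes. Calls needed an adjusted p under 0.05. SE was obtained by dividing the log2 fold change, without its sign, by the root of F. CPM is on TMM library sizes and given as mean ± SD. Gene pairs were compared as log2 count ratios (1 count added) with the 2-sided exact permutation test, which runs through 35 ways to assign 7 libraries to groups of 3 and 4. On simulated data the gene test recovered 39.4% of 1.5-fold, 73.8% of 2-fold and 98.5% of 4-fold changes, and 4.83% of its calls were false.

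The members and lists were chosen with earlier results of these data known. The genes named are all 38 members, Park7, up to 4 called genes of smallest p from each further list, the genes of the pairs, and marker genes where their list is described. The pair of ND1 with Twnk was not computed. Alternatives were other scalings, filters and tools (DESeq2 1.42.0, limma-voom), a replicate block and leaving out each library. edgeR's legacy form was added after seeing the data.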

Additional observations from a re-analysis of the deposited data

Results flagged for a closer look

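Of 38 values tested in the 4 knockouts (the 37 genes and the summed share), 3 had a library far from the other 3 by Dixon's test. Chance flags about 1 in 20 such groups. Polg was at 29.7 CPM in knockout 1 and at 39.8 to 40.9 CPM in the others. Gfm1 was at 68.0 CPM in knockout 2 and at 79.8 to 80.0 CPM in the others. Nrf1 was at 15.4 CPM in knockout 2 and at 12.1 to 12.4 CPM in the others.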

How the results depend on the processing

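Over 18 alternative fits the mtDNA mRNAs called lower numbered 9 to 13 and those called higher 0, and the nuclear genes called higher numbered 0. The 9 pair ratios and the share of the 13 mRNAs kept their direction, and the difference in share ran from -8.98 to -7.49 percentage points. The 5 nuclear genes called lower became 3 with library totals and no scaling factor, 3 with no filter on low counts and 1 to 3 with a library left out. The 9 further nuclear genes called lower became 14 with upper-quartile scaling, 5 with no filter and 3 to 10 with a library left out. Those called higher became 1 without a scaling factor, 2 with DESeq2, 1 with a robust prior and 0 to 1 with a library left out. Over all tested genes, leaving out a library gave 528 to 1091 lower and 258 to 966 higher. The cause of these changes was not tested, beyond the fewer samples where a library was left out.

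Controls and knockouts share replicate numbers 1 to 3. The deviations of same-numbered libraries correlated at 0.0945, 0.134 and 0.0854, not all over 0.1, so the main test took the numbers as labels. Each numbered library still correlated best with its own number, and libraries of different numbers reached at most 0.0809. A pairing by number can therefore not be excluded. With the replicate block, 13 mtDNA mRNAs, 1 nuclear gene and 4 further nuclear genes were called lower, 1 further nuclear gene higher, and 696 and 577 of all genes lower and higher.

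Genes that changed sign were called under no setting. Their log2 fold changes in the main fit ran from -0.13 (Tfb1m, SE 0.223) to 0.09 (Fastkd2, SE 0.114). With upper-quartile scaling Tfb2m had a log2 fold change of -0.0025, Fastkd1 -0.0088, Fastkd5 -0.0094 and Mtpap -0.047. Mtpap was also at -0.0017 with RLE scaling, -0.0061 with the mtDNA mRNAs left out of library sizes, and -0.0014 with DESeq2. Ssbp1 was at 0.0024 without a scaling factor and 0.046 with the block. With a library left out, the ranges that crossed 0 were -0.024 to 0.19 for Polg, -0.14 to 0.055 for Polg2, -0.086 to 0.097 for Ssbp1, -0.29 to 0.036 for Tfb1m, -0.054 to 0.13 for Fastkd1, -0.0034 to 0.16 for Fastkd2 and -0.036 to 0.028 for Mtpap. The number of libraries and, for the lowest nuclear genes such as Polg2 and Tfb1m, the depth limit what could be called, so a nuclear gene without a call is not shown to be unchanged.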
